A study of Arabidopsis thaliana with 22 samples.

Results

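Expansins, xyloglucan endotransglucosylase/hydrolases (XTH) and cellulose synthase-like (CSL) proteins loosen, remodel and build the cell wall of growing plant cells. Transcript abundance of 34 genes of these families was followed in Arabidopsis roots during the first day after transfer to medium with or without Fe. The genes were chosen by name: a probe set of the ATH1 array entered when it had a single gene whose symbol in the array annotation was EXPA, EXPB, EXLA, XTH, CESA, CSLA to CSLG or FLA followed by a number, with or without the prefix AT. This rule used no measured value and found 34 of the 22746 probe sets tested, 1 for each gene. They are 10 alpha-expansins (EXPA4, EXPA7, EXPA8, EXPA9, EXPA15, EXPA16, EXPA18, EXPA20, EXPA21 and EXPA24), 4 beta-expansins (EXPB1, EXPB2, EXPB3 and EXPB5), 3 expansin-like genes (EXLA1, EXLA2 and EXLA3), 9 XTH genes (XTH16, XTH18, XTH19, XTH20, XTH21, XTH26, XTH29, XTH32 and XTH33) and 8 CSL genes (CSLA01, CSLA03, CSLC04, CSLC5, CSLC6, ATCSLC08, CSLC12 and CSLD2). The RefSeq gene table of TAIR10.1, used for names alone, lists 129 genes of these families, so that all 3 EXLA and all 5 CSLC genes were covered, but 10 of 25 EXPA, 4 of 6 EXPB and 9 of 33 XTH genes. The 10 CESA genes, which encode the cellulose synthases proper, and the 20 FLA genes had 0 members under the rule, and they were not analysed here. The cellulose synthase superfamily is therefore represented by cellulose synthase-like genes alone.

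In the primary wall of a root cell, cellulose microfibrils are embedded in xyloglucan, other hemicelluloses and pectin. Expansins let wall polymers slide past each other without cutting them, and the alpha and beta groups are the classical wall-loosening proteins. EXLA proteins share their fold, but a loosening activity has not been established for them. XTH enzymes cut xyloglucan chains and rejoin the ends to other chains, and a few members hydrolyse them instead. Proteins of the CSLC group make the glucan backbone of xyloglucan in the Golgi, CSLA proteins make mannan backbones, and CSLD proteins are needed for tip growth of root hairs. Root elongation and root hair growth both depend on this machinery, and roots without Fe are known for changed root hair formation.

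The question was how root transcripts respond in the first hours after Fe is withdrawn. Plants of the accession Landsberg erecta were grown in hydroponic culture, rinsed briefly in EDTA and moved to Fe-deficient or Fe-sufficient medium, and whole roots of several plants were pooled at each harvest at 0, 1, 6 and 24 h. The 8 groups were Fe-deficient and Fe-sufficient roots of each time, with 3 arrays per group at 0, 1 and 6 h and 2 per group at 24 h, which made 22 arrays that the labels call biological replicates. Only plant batches whose Fe-deficient roots had raised ferric chelate reductase activity at 24 h were used by the study. Both media were handled alike, so the 0 h groups differed in medium for no more than the handling time. Harvests at 0 and 24 h fell at the same clock hour and those at 1 and 6 h later in the same light period, so that hour of day, time since transfer and time since handling cannot be told apart in comparisons with 1 or 6 h. Between 24 and 0 h the clock hour was the same, and time since transfer and time since handling cannot be told apart. In RNA of whole roots, fewer cells of a type and less RNA per cell cannot be told apart either.

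Levels are the linear intensities that the authors deposited, in arbitrary units, with a trimmed mean of 500.04 to 500.05 and a median of 181.1 to 210.3 per array. Changes are differences of log2(intensity + 1) from limma with all 8 groups in 1 model, Fe-deficient over Fe-sufficient roots at 1 time, or the later over the earlier time averaged over both media. A member was called for Fe supply by the study's criterion, which asks for more than 1.5-fold and for p below 0.05 without adjustment, and for time by a Benjamini-Hochberg adjusted p under 0.05 over all 22746 probe sets. All p-values measure the spread between these arrays. Arrays with 1 replicate number deviated together from their group means at 0, 1 and 6 h, in all 9 pairs of the 2 media (correlation 0.124 to 0.448). At 24 h arrays of the same number were opposed (-0.41). With 2 arrays per group, the value for different numbers is then fixed at the same size with the sign turned (0.41). A fit with replicate number as a block is given wherever it changed a call. No marker of the lists for endodermis, root hairs, xylem, phloem, meristem or leaf had a named probe set, so the tissue was not checked with them.

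Of the 34 members, 26 had a mean log2 value of at least 6, as had 15240 of all probe sets, and 25 were under an intensity of 32 on no array. The 8 dim members were EXLA2, CSLC12, EXPB5, EXPA16, CSLA01, EXPA24, XTH26 and EXPA21, and XTH26 and EXPA21 stayed under 32 on all 22 arrays. EXPA4 (At2g39700) ran from 2046 to 5447, EXPA15 (At2g03090) from 1144 to 4619.8 and CSLD2 (At5g16910), which is needed for root hair growth, from 1309 to 2566 over the arrays. The root hair expansins EXPA7 (At1g12560) and EXPA18 (At1g62980) averaged 264 and 254 and were above 32 on every array. The median residual SD between replicates was 0.42 in log2 over the 26 brighter members, against 0.28 over all probe sets of that brightness. It ran from 0.14 for CSLC6 to 1.33 for EXPA24.

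**Figure D1:**
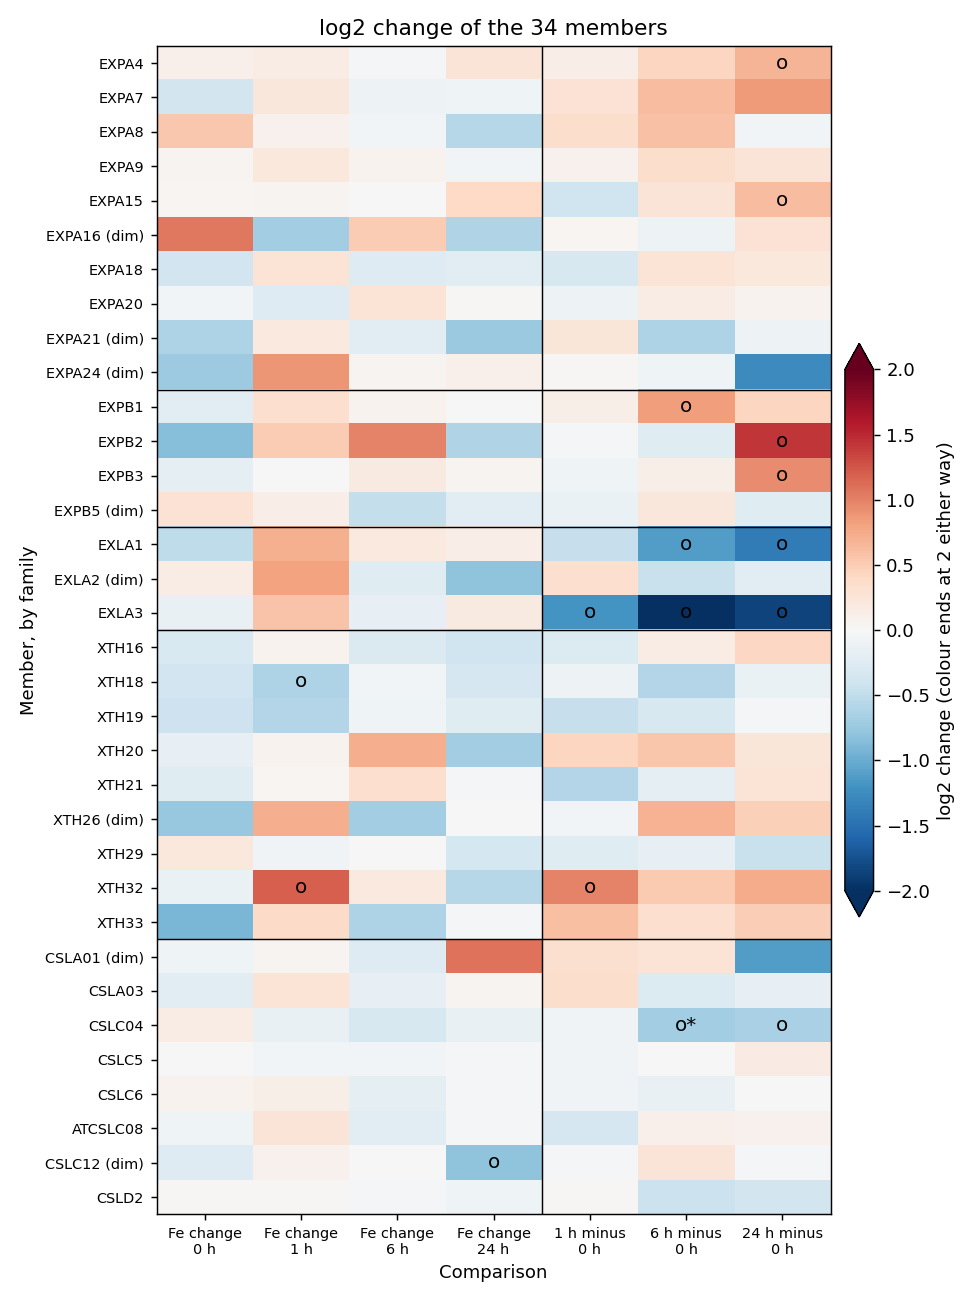
Log2 change of the 34 members in the 4 comparisons of Fe-deficient over Fe-sufficient roots and in the 3 comparisons of 1, 6 and 24 h over 0 h, coloured from -2 (blue) to 2 (red), with families parted by lines. A circle marks the study's criterion, a star an adjusted p under 0.05, and (dim) a mean log2 value under 6. The Fe columns hold 3 circles, and the darkest cells are those of EXLA3 at 6 and 24 h (-2.12 and -1.84).

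Differences between times were followed over both media. The expansin-like neighbours EXLA1 (At3g45970) and EXLA3 (At3g45960), which lie side by side on chromosome 3, were low at 6 and 24 h in both media. EXLA1 measured 704, 622 and 510.4 at 0 h, 1052, 854 and 333 after 1 h, 399, 337 and 334 after 6 h, and 352 and 234 after 24 h in Fe-deficient roots. In Fe-sufficient roots it measured 1269, 745 and 679 at 0 h, 609, 428 and 263 after 1 h, 311, 311 and 311 after 6 h, and 274 and 251 after 24 h. All 6 arrays of 6 h and all 4 of 24 h lay below all 6 of 0 h, while those of 1 h spanned both ranges. The log2 change was -1.12 (SE 0.26) for 6 h over 0 h and -1.40 (SE 0.29) for 24 h over 0 h. Neither passed in the fit without a block (adjusted p = 0.0676 and 0.0685, limma), and both passed with replicate number as a block, where the changes were -1.12 and -1.59 (adjusted p = 0.0121 and 0.00625). The blocked call at 6 h was kept without any 1 of the 22 arrays (adjusted p at most 0.0452), and that at 24 h was lost only without Fe-deficient replicate 2 of 24 h (change -1.52, adjusted p = 0.0520). Without Fe-deficient replicate 3 of 1 h both calls of EXLA1 were made without a block too (adjusted p = 0.0161 at 6 h and 0.0114 at 24 h). In Fe-deficient roots alone the difference between 6 and 0 h was -0.77, against -1.47 in Fe-sufficient roots, and the change of the Fe effect over time had no adjusted p under 0.05 for any member.

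EXLA3 followed with a wider spread. Its Fe-deficient arrays read 802, 382 and 171 at 0 h, 529.6, 196 and 88.1 after 1 h, 121, 65.0 and 78.1 after 6 h, and 181 and 74.4 after 24 h. The Fe-sufficient arrays read 1262, 231 and 243 at 0 h, 214, 152 and 86.8 after 1 h, 124, 73.3 and 94.6 after 6 h, and 92.4 and 113 after 24 h. Replicate 1 was the highest of its group at 0 and 1 h in both media, and even the lowest array of 0 h (171) lay above the highest of 6 h (124), whereas the 24 h arrays reached 181. EXLA3 differed by -2.12 (SE 0.51) in log2 between 6 and 0 h and by -1.84 (SE 0.57) between 24 and 0 h, with adjusted p = 0.0756 and 0.320 (limma). With the block the changes were -2.12 (adjusted p = 0.00708) and -2.17 (adjusted p = 0.0242). Leaving out any 1 array kept the blocked call at 6 h (adjusted p at most 0.0314), and the call at 24 h was lost without 5 arrays, both Fe-deficient arrays of 24 h, Fe-deficient replicates 1 and 2 and Fe-sufficient replicate 1 of 0 h (changes -1.91 to -2.25, adjusted p up to 0.128). Within replicate 1 the difference between 6 and 0 h was -3.03, within replicate 2 it was -2.09 and within replicate 3 it was -1.24. Already at 1 h EXLA3 differed by -1.19 from 0 h, which met the study's criterion with overlapping arrays and missed it without any 1 of 6 of the 12 arrays, Fe-deficient replicates 1 and 2 and Fe-sufficient replicate 1 of 0 h and Fe-deficient replicates 2 and 3 and Fe-sufficient replicate 3 of 1 h (changes -0.79 to -1.18). Without Fe-deficient replicate 3 of 0 h EXLA3 was called at 6 h in the fit without a block too (adjusted p = 0.0496). The third gene of the group, EXLA2, was dim at 25.0 to 163 and differed by -0.44 at 6 h and -0.21 at 24 h, neither past the test. Whether the probe sets of EXLA1 and EXLA3, which are close relatives, share signal was not tested.

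CSLC04 (At3g28180), one of the xyloglucan glucan synthases, was the 1 member called between times without a block, lower at 6 h than at 0 h. Over all probe sets 0.659% were called in this comparison, and at an unadjusted p under 0.05 it was 6 members and 8.92%. The study's criterion was met at 6 h by 4 members, the same as those called with the block below, and by 4.62% of all probe sets. CSLC04 measured 2257, 1752 and 1661 at 0 h, 1770.2, 1646 and 1449.7 after 1 h, 843, 1113 and 1009 after 6 h, and 1013 and 1149.6 after 24 h in Fe-deficient roots. Its Fe-sufficient arrays were 2067, 1466 and 1569 at 0 h, 1294, 2245 and 1956 after 1 h, 1132, 1165 and 1400.4 after 6 h, and 1317 and 1080.4 after 24 h. Every array of 6 or 24 h was below every array of 0 h. The log2 change was -0.69 (SE 0.15, adjusted p = 0.0385, limma) for 6 h over 0 h and -0.64 (SE 0.16, adjusted p = 0.167) for 24 h over 0 h, and with the block the first was -0.69 (adjusted p = 0.0439). The call without a block was lost without any 1 of 14 of the 22 arrays (changes -0.62 to -0.74, adjusted p up to 0.121): all 6 of 6 h, both Fe-deficient ones of 24 h, Fe-deficient replicates 1 and 2 and Fe-sufficient replicates 1 and 3 of 0 h, and Fe-deficient replicate 2 and Fe-sufficient replicate 3 of 1 h. The study's criterion, which CSLC04 met at 24 h, was missed there without Fe-deficient or Fe-sufficient replicate 1 of 0 h or Fe-sufficient replicate 2 of 24 h (changes -0.57 to -0.58). In Fe-deficient roots alone the difference was -0.93 (adjusted p = 0.157) and in Fe-sufficient roots alone -0.45 (adjusted p = 0.785). In either medium alone 0 members were called, beside 0.0308% of all probe sets in Fe-deficient and 0.0044% in Fe-sufficient roots. The other 4 CSLC genes had smaller values: at 6 h CSLC5 differed by 0.01 from 0 h, CSLC6 by -0.15, ATCSLC08 by 0.11 and the dim CSLC12 by 0.26, and none was called.

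EXPB1 (At2g20750), a beta-expansin, was called higher at 6 h than at 0 h with the block alone. It measured 132, 78.7 and 114 at 0 h, 157, 102 and 168 after 1 h, 324, 163 and 171 after 6 h, and 203 and 117 after 24 h in Fe-deficient roots. In Fe-sufficient roots the values were 159.8, 102 and 114 at 0 h, 169, 70.6 and 111 after 1 h, 259, 181 and 168 after 6 h, and 128 and 188 after 24 h. The lowest array of 6 h (163) was just above the highest of 0 h (159.8), and the 1 and 24 h arrays overlapped both. The log2 change for 6 h over 0 h was 0.83 (SE 0.25, adjusted p = 0.201, limma), and with the block it was 0.83 with an adjusted p of 0.0497. The blocked calls of EXPB1 and CSLC04 at 6 h were each lost without any 1 of 18 of the 22 arrays (adjusted p up to 0.156 and 0.140). EXPB1 kept its call only without Fe-deficient replicate 3 of 6 h, Fe-sufficient replicate 2 of 1 h or either Fe-sufficient array of 24 h, and CSLC04 only without either of those of 24 h or Fe-sufficient replicate 1 or 2 of 1 h. In the blocked fit with the numbers of the Fe-sufficient arrays of 24 h crossed, also chosen after seeing the data, the adjusted p was 0.00595 for EXPB1 and 0.0317 for CSLC04 (limma). With the block, 4 members were thus called between 6 and 0 h, EXLA1, EXLA3 and CSLC04 lower and EXPB1 higher, where 1.22% of all probe sets were called. Arrays of the 2 times did not overlap for 4 of the 34 members (11.8%), beside 1.38% of all probe sets. They were the same 4 members, and both counts rest on the same arrays. With replicates 2 and 3 alone, a setting chosen after seeing the data, 0 of them passed in the blocked fit (adjusted p = 0.475, 0.369, 0.480 and 0.446), at changes of -0.97, -1.66, -0.47 and 0.75.

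**Figure D2:**
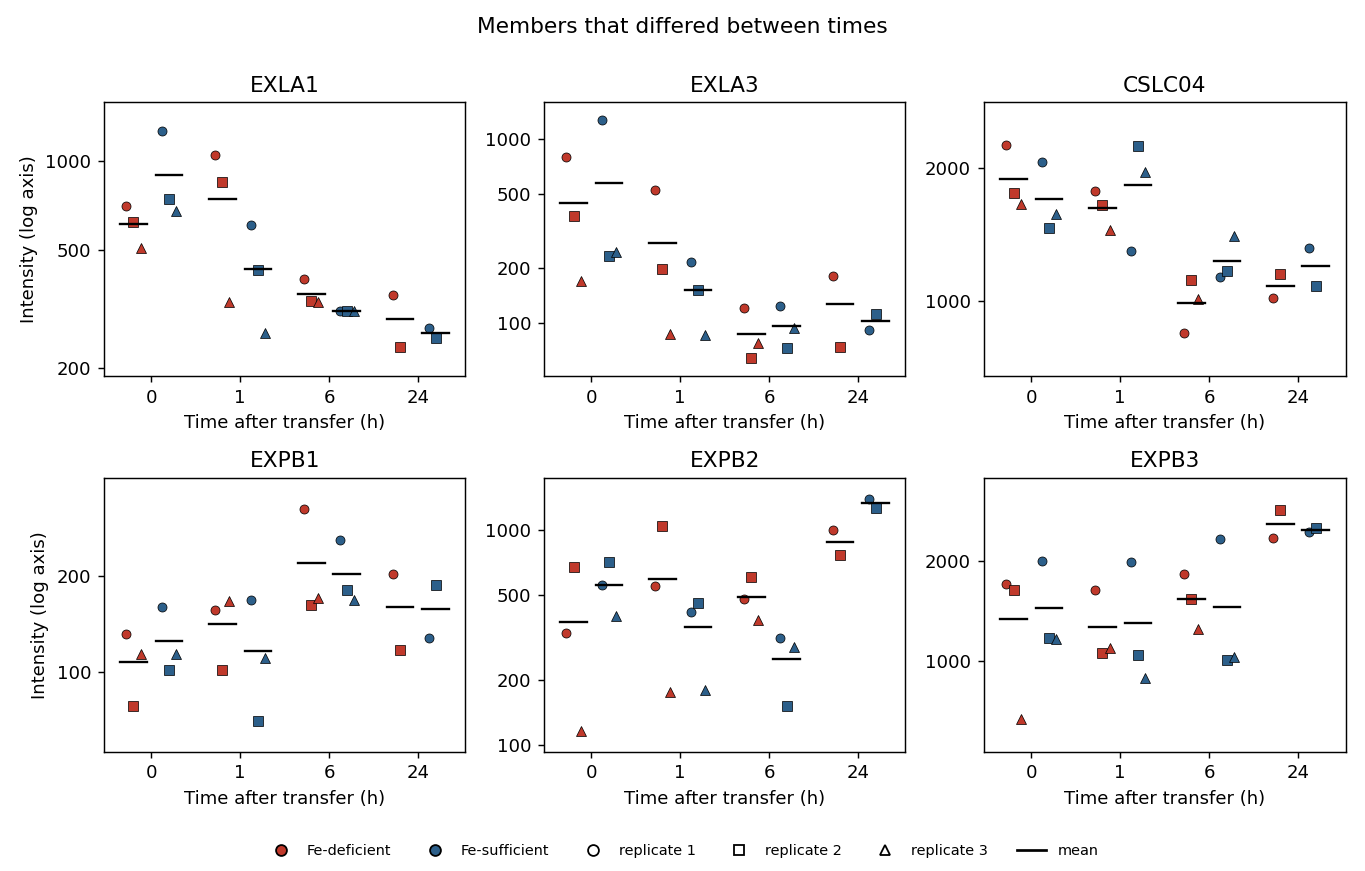
Intensity (log axis) of EXLA1, EXLA3, CSLC04, EXPB1, EXPB2 and EXPB3 on each array against hours after transfer, Fe-deficient roots in red and Fe-sufficient roots in blue, with the marker shape giving the replicate number and a line at each group mean. EXLA1, EXLA3 and CSLC04 lie lower at 6 h than at 0 h and EXPB1 higher, without overlap, and the means of EXPB2 and EXPB3 over both media are highest at 24 h.

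At 24 h against 0 h, the same clock hour a day apart, 0 of the 34 members had an adjusted p under 0.05 without the block, against 0.246% of all probe sets (8 members and 7.59% of all probe sets had p under 0.05 before adjustment, limma). With the block 2 were called, EXLA1 and EXLA3, where 0.409% of all probe sets were called, and the blocked count was 0 without Fe-deficient replicate 2 and 5 without Fe-sufficient replicate 1 of 24 h. By the study's criterion 7 members differed, where 4.04% of all probe sets did. Lower at 24 h were CSLC04, EXLA1 and EXLA3, and higher were EXPA4, EXPA15, EXPB2 and EXPB3. The arrays of the 2 times did not overlap for 5 of the 34 members (14.7%), beside 3.39% of all probe sets. These 5 were among the 7, all but EXLA3 and EXPA15, and both counts rest on the same arrays.

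EXPB2 (At1g65680) was the beta-expansin with the widest range in log2, from 116 to 1395.1 over the arrays. Its Fe-deficient arrays read 331, 673 and 116 at 0 h, 547, 1041 and 176 after 1 h, 477, 601 and 379.8 after 6 h, and 1003 and 764 after 24 h. Its Fe-sufficient arrays read 555, 707 and 396 at 0 h, 417, 459 and 180.0 after 1 h, 314, 152 and 285 after 6 h, and 1395 and 1267 after 24 h. The 4 arrays of 24 h were above all 6 of 0 h and all 6 of 6 h, and those of 1 h reached into them. The change was 1.43 in log2 (SE 0.49, adjusted p = 0.426, limma) over 0 h and 1.67 (SE 0.49, adjusted p = 0.450) over 6 h, and with the block 1.09 and 1.33. EXPB3 (At4g28250) measured 2336 and 2829 in Fe-deficient and 2441 and 2504 in Fe-sufficient roots at 24 h. At 0 h it had 1706, 1635 and 669 in Fe-deficient and 2000.1, 1176 and 1163 in Fe-sufficient roots. At 6 h EXPB3 ran from 1252.1 to 1827.5 in Fe-deficient and from 1010 to 2329.9 in Fe-sufficient roots. The highest array of 6 h was thus just under the lowest of 24 h (2336.1). No share of all probe sets without overlap between 24 and 6 h is given here, for EXPB2 or EXPB3. The 24 h arrays of EXPB3 were the higher ones throughout, by 0.94 (SE 0.32, adjusted p = 0.420) over 0 h and by 0.82 (SE 0.32, adjusted p = 0.641) over 6 h. Its value over 6 h missed the study's criterion without Fe-deficient replicate 2 of 24 h (change 0.75).

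EXPA4 had 4481 and 5447 in Fe-deficient and 4252 and 3979 in Fe-sufficient roots at 24 h, above all 6 arrays of 0 h, which ran from 2081 to 3718. The change was 0.67 (SE 0.24, adjusted p = 0.460, limma), and at 6 h it was 0.43 over 0 h. EXPA15 had 2677 and 4619.8 in Fe-deficient and 3396 and 2116 in Fe-sufficient roots at 24 h, and 1543 to 2758 at 0 h, which overlapped. Its change was 0.62 (SE 0.23, adjusted p = 0.490). The study's criterion was missed for EXPA4 without Fe-deficient or Fe-sufficient replicate 3 of 0 h (changes 0.55 and 0.58) and with the replicate block (0.48), and for EXPA15 without Fe-deficient replicate 1 of 0 h, Fe-deficient replicate 2 of 24 h or Fe-sufficient replicate 1 of 24 h (changes 0.42 to 0.52). EXPA7 met the criterion for 24 h over 0 h with the block alone (0.76, and 0.85 without the block). Of the whole group of 10 alpha-expansins, 0 were called between any times without or with the block, and the median of their log2 changes was 0.06 at 1 h, 0.27 at 6 h and 0.23 at 24 h over 0 h, beside -0.04, 0.03 and -0.01 for all probe sets. The range at 24 h ran from -1.27 for the dim EXPA24 to 0.85 for EXPA7. Of the 3 EXLA genes, EXLA1 had the middle value over 0 h at each of the 3 times, -0.47, -1.12 and -1.40. The dim EXLA2 had the smallest fall, -0.44 at 6 h and -0.21 at 24 h.

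Between 1 and 0 h 0 of 34 members had an adjusted p under 0.05, against 0.0352% of all probe sets (4 members and 5.98% of all probe sets had p under 0.05 before adjustment, limma). With the block 0 members passed, and 0.0132% of all probe sets did. By the study's criterion 2 members differed at 1 h, EXLA3 as given above and XTH32, where 3.13% of all probe sets did. XTH32 (At2g36870), which belongs with the XTH proteins that hydrolyse xyloglucan, had its highest group mean at 1 h in Fe-deficient roots. It measured 101, 171 and 117 at 0 h, 828, 469.5 and 167 after 1 h, 224, 221 and 169.7 after 6 h, and 159.5 and 209 after 24 h in Fe-deficient roots. In Fe-sufficient roots it read 107, 168 and 149.5 at 0 h, 284, 219 and 85.2 after 1 h, 201, 128 and 219.7 after 6 h, and 478 and 153 after 24 h. Replicate 1 was the highest array of 1 h in both media and replicate 3 the lowest, and of the 6 arrays of 1 h 4 lay above the range of 0 h, 1 within it and 1 below it. The difference from 0 h was 0.99 (SE 0.38, adjusted p = 0.704, limma), which was 2.21 within replicate 1, 0.92 within replicate 2 and -0.14 within replicate 3. It missed the criterion without Fe-deficient or Fe-sufficient replicate 1 of 1 h (changes 0.73 and 0.82).

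Between 24 and 6 h 0 members and 0% of all probe sets had an adjusted p under 0.05 (5 members and 6.86% of all probe sets had p under 0.05 before adjustment, limma). The study's criterion was met by 3 members, EXPB2 and EXPB3, higher at 24 h, and the dim CSLA01, lower, where 3.68% of all probe sets met it. CSLA01 (At4g16590) read 10.4 and 11.8 in Fe-deficient and 1.2 and 13.6 in Fe-sufficient roots at 24 h, and 5.5 to 52.8 at 6 h, so that its difference of -1.38 (SE 0.63) lies among dim values, and it missed the criterion without any 1 of 7 of the 10 arrays of these times (changes -0.70 to -1.42). The 3 without which it met the criterion were Fe-deficient replicate 1 and Fe-sufficient replicate 3 of 6 h and Fe-sufficient replicate 2 of 24 h. With the block XTH21 met the criterion between 24 and 6 h as well, at 0.66, against 0.45 without the block. No member was called for a Fe effect that changed with time (limma F-test over 3 interactions, adjusted p = 1.00 for all 34), and 0 members had an unadjusted p under 0.05, as had 0% of all probe sets after and 1.75% before adjustment.

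Few of these transcripts were called for Fe supply, as was so for all probe sets. In the fit without a block, the deviation that arrays of equal number shared at 0, 1 and 6 h stayed in the spread. By the study's criterion 0 of 34 members were called at 0 h, where 2.04% of all probe sets were, 2 at 1 h (1.87%), 0 at 6 h (2.13%) and 1 at 24 h (1.47%). With replicate number as a block the counts were 0 (2.49% of all probe sets), 3 (2.3%), 0 (2.61%) and 1 (1.77%). Without the block 465, 425, 484 and 334 of all probe sets met the criterion in the fit used here. The study itself lists fewer genes by this criterion at each of the 4 times, and the reason was not tested. An unadjusted p under 0.05 was reached by 0, 3, 0 and 1 members at the 4 times, and by 2.8%, 2.39%, 2.73% and 1.57% of all probe sets. All 136 adjusted p-values of the members were 1.00 after rounding (limma), and 0%, 0.0044%, 0.00879% and 0% of all probe sets passed after adjustment. The median change of the members was -0.15 at 0 h, 0.12 at 1 h, -0.05 at 6 h and -0.07 at 24 h, beside 0.01, 0.01, -0.02 and 0.00 for all probe sets. At 1 h 27 of the 34 values were positive, and at the other times 12, 11 and 9 were. The count of calls was 1 to 2 at 0 h without Fe-sufficient replicate 3 or Fe-deficient replicate 2 of 0 h, and 1 to 2 at 6 h without Fe-sufficient replicate 1 or Fe-deficient replicate 3 of 6 h. At 1 h it was 1 without Fe-deficient replicate 1 or 2 or Fe-sufficient replicate 2 or 3 of that time, and 5 without Fe-sufficient replicate 1. At 24 h it was 0 without Fe-deficient replicate 2 or Fe-sufficient replicate 1 of that time, and 2 on leaving out Fe-sufficient replicate 2.

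The members called at 1 h were XTH18 (At4g30280), lower, and XTH32, higher, in Fe-deficient roots. XTH18, XTH19 and XTH20 are close relatives with root expression, XTH18 has a known part in root elongation, and XTH18 and XTH19 lie side by side on chromosome 4. At 1 h XTH18 measured 1358, 1444 and 1271 in Fe-deficient and 1724, 2519.6 and 2085 in Fe-sufficient roots. The arrays of the media did not overlap, which was so for 5.03% of all probe sets. The log2 change was -0.62 (SE 0.23, adjusted p = 1.00, limma), and -0.62 with either block. The criterion was missed without Fe-sufficient replicate 2 of 1 h (change -0.48) and without Fe-deficient replicate 3 of 1 h (change -0.57). At the other times its Fe-deficient arrays read 1916, 1344 and 1528 at 0 h, 1230.4, 948 and 1397 after 6 h, and 1228 and 1731 after 24 h. The Fe-sufficient ones read 2436, 2317 and 1526 at 0 h, 1576, 1015 and 1152 after 6 h, and 2055 and 1651 after 24 h. These values overlapped between media, with log2 changes of -0.38, -0.06 and -0.34, none called. A Fe effect that changed with time was not called for XTH18 by the F-test.

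XTH19 (At4g30290) lay just under the fold limit. It measured 621, 823 and 1106 in Fe-deficient and 911, 1425 and 1453 in Fe-sufficient roots at 1 h, which overlapped, with a log2 change of -0.58 (SE 0.22). The other values of XTH19 were -0.42 at 0 h, -0.08 at 6 h and -0.24 at 24 h. At 0 h its arrays read 1199, 1303 and 1123 in Fe-deficient and 2022, 1525 and 1358 in Fe-sufficient roots, without overlap but not called (6.24% of all probe sets were without overlap at 0 h). Both genes had thus the same sign at all 4 times, and whether signal of 1 reached the probe set of the other was not tested. XTH18 also differed between 6 and 0 h by -0.58 (SE 0.17, adjusted p = 0.149) over both media, and XTH19 differed between 1 and 0 h by -0.46 (SE 0.16, adjusted p = 0.616), neither called.

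XTH32 measured 828, 469.5 and 167 in Fe-deficient and 284, 219 and 85.2 in Fe-sufficient roots at 1 h. It was the higher in Fe-deficient roots within each replicate number, by 1.54, 1.10 and 0.96 in log2, while the arrays overlapped across numbers. The change was 1.20 (SE 0.54, adjusted p = 1.00, limma), and with a block within time its SE was 0.35. The criterion was missed without Fe-deficient replicate 1 (change 0.68), Fe-deficient replicate 2 (1.09) or Fe-sufficient replicate 3 (0.69) of 1 h, with quantile normalization (1.16), with the 2 groups alone in the fit (1.20), and with replicates 2 and 3 alone (1.03). At 0 h XTH32 differed by -0.14, at 6 h by 0.19 and at 24 h by -0.56, where 1 Fe-sufficient array read 478 and the other 153. EXLA1 was called at 1 h only with a block, at 0.71, where the SE was 0.26 with the number block and 0.17 with the block within time, against 0.37 without a block. Its Fe-deficient value was above the Fe-sufficient value in all 3 replicate numbers of 1 h, by 0.79, 1.00 and 0.34. The changes of the 3 EXLA genes, the dim EXLA2 included, ran from 0.56 to 0.80 at this time, with EXLA1 in the middle.

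**Figure D3:**
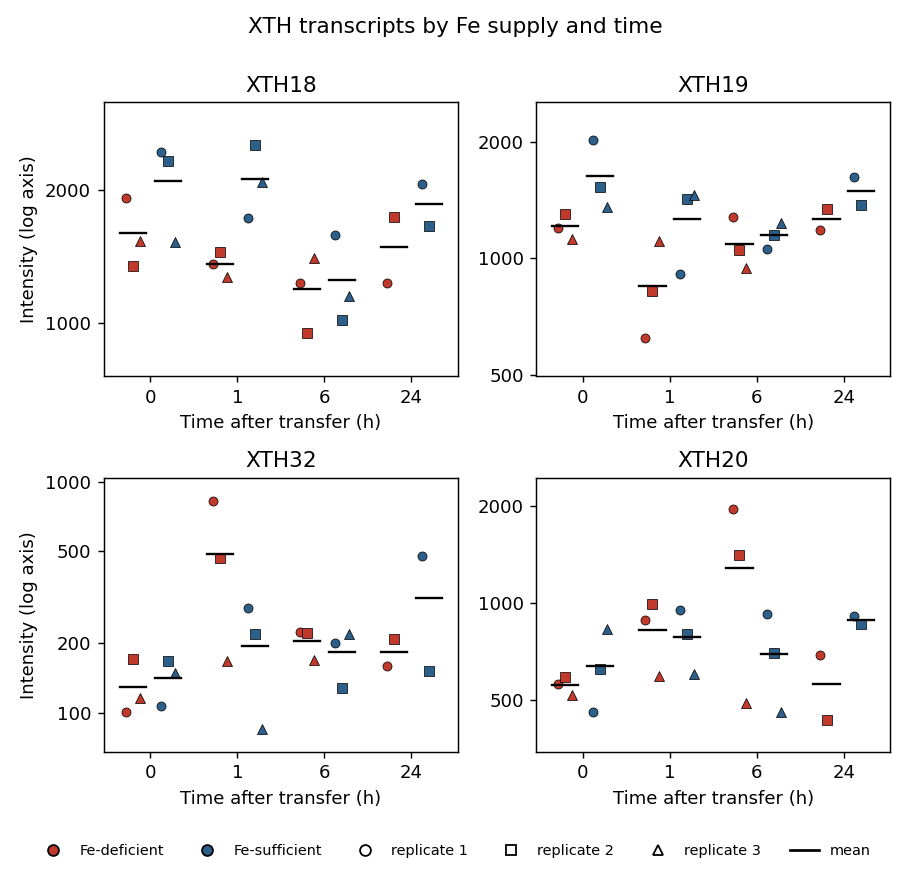
Intensity (log axis) of XTH18, XTH19, XTH32 and XTH20 on each array against hours after transfer, Fe-deficient roots in red and Fe-sufficient roots in blue, with the marker shape giving the replicate number and a line at each group mean. At 1 h the 3 Fe-deficient arrays of XTH18 (1271 to 1444) lie below the 3 Fe-sufficient ones (1724 to 2519.6), and XTH32 reaches its highest intensity, 828, in Fe-deficient replicate 1.

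At 0 h the members' changes ran from -0.91 for XTH33 to 1.06 for the dim EXPA16, none called. XTH33 (At1g10550), which is anchored in the plasma membrane, read 88.2, 116 and 6.1 in Fe-deficient and 109, 67.0 and 64.5 in Fe-sufficient roots, so that 1 dim array stood apart. At 6 h 0 members were called, and 2 were with a block within time, a fit in which calls over all probe sets were not counted. EXPB2 measured 477, 601 and 379.8 in Fe-deficient and 314, 152 and 285 in Fe-sufficient roots at 6 h, which did not overlap. At 6 h the media were without overlap for 3 members (8.82%), beside 6.15% of all probe sets. The others were EXLA1, higher in Fe-deficient roots, and CSLC04, lower, neither called for Fe at that time. The change of EXPB2 was 1.00 (SE 0.62, and 0.39 with the block within time). XTH20 (At5g48070) measured 1952, 1403 and 488 in Fe-deficient and 926, 701 and 459 in Fe-sufficient roots at 6 h, the Fe-deficient array being the higher at each number. The change was 0.72 (SE 0.41, and 0.25 with that block). At 24 h the signs of both were turned, with 689 and 431 against 911 and 859 for XTH20 (change -0.70) and 1003 and 764 against 1395 and 1267 for EXPB2 (change -0.60) in Fe-deficient against Fe-sufficient roots. The change of sign was not called for either in the F-test.

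The 1 member called at 24 h was CSLC12 (At4g07960), a dim gene of the xyloglucan backbone group, at 50.7 and 24.6 in Fe-deficient and 60.2 and 65.1 in Fe-sufficient roots. The log2 change was -0.81 (SE 0.33, adjusted p = 1.00, limma). It was lost without Fe-deficient replicate 2 of 24 h (change -0.30) and without either Fe-sufficient array of 24 h (changes -0.86 and -0.75). Over all other times CSLC12 read 35.3 to 72.8, so that 1 array at 24.6 stood apart. At 24 h the arrays of the media did not overlap for 8 members, or 23.5%, beside 23.7% of all probe sets with 2 arrays a side. With a block within time XTH20 was called as well at 24 h, although the numbers of that time did not pair the arrays.

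For the other members the Fe comparisons give limits rather than changes. The 95% interval of the change lay within 2-fold either way for 16 of the 34 members at 0, 1 and 6 h and for 12 at 24 h, and within 1.5-fold for 5, 4, 5 and 4. CSLC6 (At3g07330) was the most even of all, at 445.9 to 656 over the 22 arrays. Its interval was -0.18 to 0.40 in log2 at 1 h, -0.47 to 0.11 at 6 h and -0.40 to 0.32 at 24 h. EXPA20 (At4g38210) ran from 178 to 318 over the arrays, with an interval of -0.08 to 0.62 at 6 h. CSLC5 (At4g31590) had -0.42 to 0.30 at 6 h and -0.47 to 0.42 at 24 h, and CSLD2 had -0.48 to 0.39 and -0.63 to 0.44. CSLA03 (At1g23480), a mannan synthase gene, had its highest group means at 1 h, 716 ± 135 in Fe-deficient and 601 ± 154 in Fe-sufficient roots (SD, n = 3), and its change between media at that time was 0.27 (-0.25 to 0.79). EXPA9 (At5g02260) had 0.21 at 1 h and 0.07 at 6 h (SE 0.26 each), and XTH16 (At3g23730) 0.06 and -0.28 (SE 0.31 each). At the far end EXPA24 had -2.13 to 2.23 at 6 h, an interval that holds changes of over 2-fold in both directions.

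Several members differed by replicate number. An F-test for the number, in the fit with the block, gave 9 of the 34 an adjusted p under 0.05, against 15.1% of all probe sets: XTH29, EXPA4, EXLA3, EXPA7, EXLA2, EXPB3, EXPA18, EXLA1 and EXPB1. XTH29 (At4g18990) had the smallest adjusted p of the 9. In Fe-deficient roots it read 54.2, 192 and 195 at 0 h, 44.8, 147 and 138 after 1 h, 43.9, 135 and 191 after 6 h, and 49.2 and 116 after 24 h. In Fe-sufficient roots it read 48.4, 157 and 170.1 at 0 h, 41.0, 173 and 148 after 1 h, 40.0, 173 and 163 after 6 h, and 149 and 63.0 after 24 h. At 0, 1 and 6 h the 6 replicate 1 arrays were at 40.0 to 54.2 and the other 12 at 135 to 194.5, so that the split was the same in both media. At 24 h the low arrays were Fe-deficient replicate 1 and Fe-sufficient replicate 2, which carry different numbers. The count of 9 became 2 to 5 on leaving out any 1 of the 6 replicate 1 arrays of 0, 1 and 6 h (2 without Fe-deficient replicate 1 of 1 h, 5 without Fe-sufficient replicate 1 of 6 h and 3 without each of the other 4).

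The root hair expansin EXPA7 ran the other way. Its replicate 1 arrays of 0, 1 and 6 h lay between 288 and 578, and those of replicates 2 and 3 between 90.0 and 263. In Fe-deficient roots EXPA7 read 288, 90.0 and 145 at 0 h, 316, 149.7 and 263 after 1 h, 578, 162 and 193 after 6 h, and 450.4 and 211 after 24 h. The Fe-sufficient values were 371, 165 and 131 at 0 h, 368, 108 and 196 after 1 h, 501, 171 and 263 after 6 h, and 239.6 and 449.6 after 24 h. At 24 h the higher arrays were again Fe-deficient replicate 1 and Fe-sufficient replicate 2. EXPA18, the second root hair expansin, had medians of 301, 193 and 215 over the replicate 1, 2 and 3 arrays of 0, 1 and 6 h, with overlap. In the F-test for the number, over all 22 arrays, its adjusted p was 0.0279 (limma). Replicate 1 arrays did not overlap with the others for 3 members, XTH29, EXPA7 and EXPB3, where 7.18% of all probe sets had no overlap. What the replicate numbers stand for beyond the labels, and their part in these levels, was not tested. Neither root hair expansin was called for Fe at any time: the values of EXPA7 were -0.36, 0.22, -0.10 and -0.09 at 0, 1, 6 and 24 h (SE 0.62 to 0.76), and those of EXPA18 were -0.38, 0.27, -0.26 and -0.22 (SE 0.38 to 0.46).

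**Figure D4:**
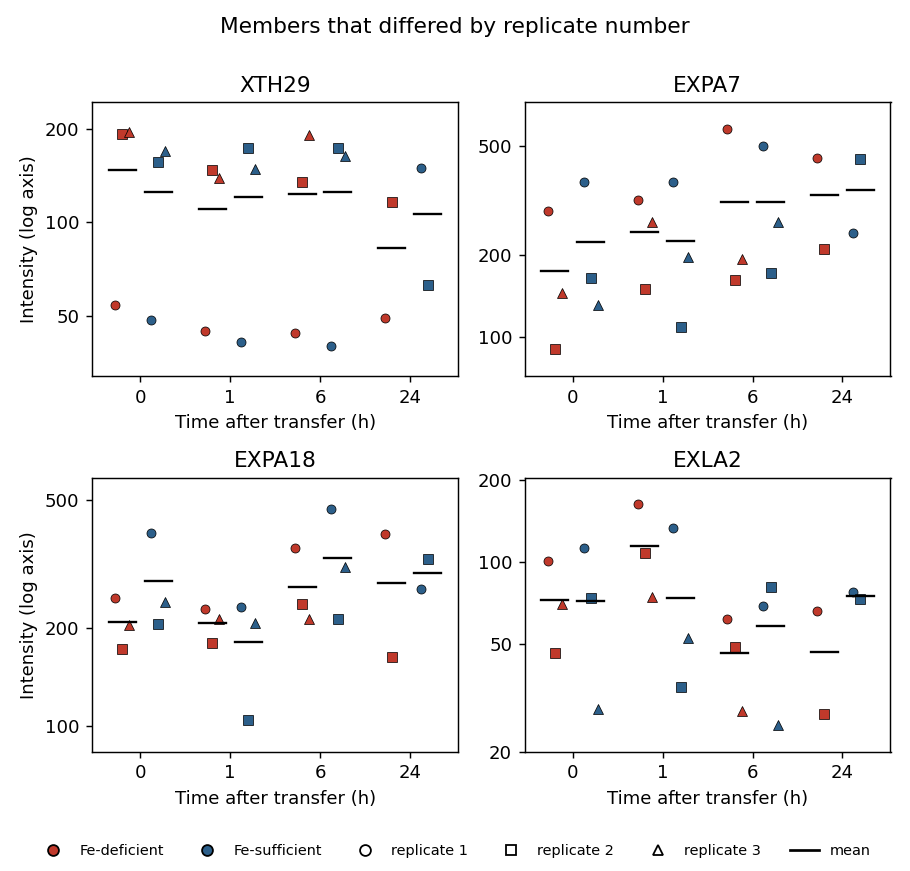
Intensity (log axis) of XTH29, EXPA7, EXPA18 and EXLA2 on each array against hours after transfer, Fe-deficient roots in red and Fe-sufficient roots in blue, with the marker shape giving the replicate number and a line at each group mean. Circles (replicate 1) lie apart from squares and triangles at 0, 1 and 6 h for XTH29 (40.0 to 54.2, below the others) and EXPA7 (288 to 578, above them).

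The remaining members were not called by the main rules in any comparison. EXPA8 (At2g40610) ran from 45.9 to 253, with 45.9 to 94.3 on the replicate 1 arrays of 0, 1 and 6 h. XTH21 (At2g18800), known for a part in root growth, ran from 95.1 to 485, and was -0.58 at 1 h relative to 0 h (adjusted p = 0.895, limma). The dim members XTH26, EXPA21 and EXPA24 stayed at or below 38.0 on all arrays, EXPA16 ran from 2.2 to 62.8 and EXPB5 from 20.2 to 70.4, levels at which the share of other signal is not known. EXPA21 and EXPA24 lie near each other on chromosome 5, with 4 genes between them. Of the lists of other wall genes, 3 genes had a named probe set, and 0 were called in any of the 4 Fe or 4 time comparisons: EXGT-A3, an XTH family gene listed under another symbol, COB, which guides oriented cellulose deposition, and GUT2, a gene of xylan synthesis in the secondary wall. Their Fe changes at 24 h were 0.09 (SE 0.28), -0.20 (SE 0.20) and 0.02 (SE 0.24). Over both media at 24 h against 0 h they were 0.32 (SE 0.18), 0.10 (SE 0.13) and 0.16 (SE 0.15). For xyloglucan synthesis and trimming, pectin and extensins 0 listed genes had a named probe set.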

How the data were processed

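Whole-root RNA was hybridised to Affymetrix ATH1 arrays, with 3 arrays a group except at 24 h, where there were 2. The values that the authors deposited are linear intensities per probe set, scaled to a common trimmed mean (the lowest and highest 2% left out). The methods name a robust probe-level linear model in AffylmGUI and limma, and the program that wrote the linear values is not given in the sources used here. No detection calls were used. Genes were named through the array annotation: 13513 probe sets had 1 symbol, 503 several and 8730 none here. All 34 members were matched to a locus. 0 columns belonged to other series.

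Control probe sets (64) were removed. For the other 22746, log2(intensity + 1) was modelled by group (8 groups, no block) with lmFit and eBayes of limma 3.58.1 under R 4.3.3, where the residual degrees of freedom were 14 and the prior ones 1.81. The contrasts, the study's criterion and the Benjamini-Hochberg adjusted p are given with the results. Alternatives were quantile normalization, a pseudocount of 16, a filter at a mean log2 of 6, replicate blocks, fits of fewer groups, the other call rule and leaving out each array. Replicate numbers come from the labels. At 0, 1 and 6 h the 2 arrays of each number deviated together in all 9 pairs, so that equal numbers were treated as pairs there. At 24 h they did not pair.

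Named with values were members called for Fe or time, the 3 of highest mean intensity in each family and a textbook set fixed by name. EXPA8, EXPB5, XTH16, XTH29, XTH33 and other members outside this rule were chosen after their values were seen. The members and all gene lists were chosen with earlier results of these data known. Motif counts in promoters were not made, since no promoter sequence was used here.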

Additional observations from a re-analysis of the deposited data

How the results depend on the processing

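No change that was called or met the study's criterion in the main fit, or was called between times with the block, turned its direction under any alternative. Directions of the other changes were not followed in this way. Between media at 24 h, for example, XTH29 differed by -1.58 within replicate 1 and by 0.87 within replicate 2. Counts of members called for Fe at 0, 1, 6 and 24 h were 0, 2, 0 and 1. At 1 h the count was 1 with quantile normalization and 1 with the 2 groups alone in the fit, where XTH32 was lost. At 6 h it was 2 with a replicate block within time and 1 with the 2 groups alone. At 24 h it was 0 with the filter on dim probe sets, which leaves CSLC12 out, 2 with the block within time and 0 with the 2 groups alone. No count is given for 24 h with replicates 2 and 3 only, where each medium had 1 array. That last setting, like the crossed pairing and the omissions within the blocked fit, was chosen after seeing the data. Between times, the count at 6 h over 0 h was 1. It was 2 with a pseudocount of 16 (EXLA1 added), 3 with the filter (EXLA1 and EXLA3 added), 4 with the replicate block, 4 by the study's criterion, and 0 in Fe-deficient roots alone, in Fe-sufficient roots alone and with replicates 2 and 3 only. At 24 h over 0 h the count of 0 became 1 with a pseudocount of 16 (EXLA1), 1 with the filter (EXLA1), 2 with the replicate block and 7 by the criterion. The criterion gave 2 at 1 h over 0 h and 3 at 24 h over 6 h. In the blocked fit with replicates 2 and 3 only, the count of 4 at 6 h over 0 h became 0. At 24 h each medium had 1 array in that fit, so no count is given. There EXLA1 differed by -1.59 and EXLA3 by -1.62 from 0 h. Calls over all probe sets were counted only in the main fit and with replicate number as a block. The counts of members under the other settings therefore have no such share beside them. Why the calls moved was not tested.

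With replicate number as a block, the counts were 0, 3, 0 and 1 for Fe and 0, 4, 2 and 0 for 1, 6 and 24 h over 0 h and 24 h over 6 h. By the study's criterion between times EXPA4 was lost and EXPA7 added at 24 h over 0 h and XTH21 added at 24 h over 6 h. No call by these rules changed with the block other than those named in the text. With the numbers of the 2 Fe-sufficient arrays of 24 h crossed, the blocked counts were 1 for Fe at 24 h, 0 for 24 h over 6 h, 4 for 6 h over 0 h and 2 for 24 h over 0 h.

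Without 1 array, the counts ran from 0 to 2, 1 to 5, 0 to 2 and 0 to 2 for Fe at 0, 1, 6 and 24 h, 0 to 2 for 6 h over 0 h, 0 to 1 for 24 h over 0 h, 0 to 0 for 1 h over 0 h, 24 h over 6 h and the Fe effect by time, and 2 to 12 for replicate number. In the blocked fit they ran from 2 to 4 at 6 h and 0 to 5 at 24 h over 0 h. Calls over all probe sets were not counted without 1 array. The number of arrays limits the precision.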
